A study of Mus musculus with 201 samples.

Results

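The 10 genes described here encode the transcription factors and coactivators of the cyclic AMP response: *Creb1*, *Crem* and *Atf1* of the CREB family, the related factors *Atf2*, *Atf3* and *Atf4*, the CREB-regulated coactivators *Crtc1*, *Crtc2* and *Crtc3*, and the acetyltransferase *Crebbp*. They were chosen by name, with earlier results of these data known. All 10 of 10 are among the 42790 to 42802 gene symbols of each table. The series holds 201 single dentate granule cells (DGCs) or DGC nuclei of the mouse hippocampus, each sequenced as its own library. Whole cells came from Prox1-GFP mice, which express a green fluorescent protein from the promoter of the DGC factor *Prox1*, and were dissociated with a protease and sorted as GFP+. The mice had received either 50 mg per kg pentylenetetrazole (PTZ), a GABA(A) receptor antagonist that causes seizures, or saline, 1 h earlier, and 2 mice were pooled per treatment. Nuclei came from 8-week-old C57BL/6 mice, either after 15 min in an unfamiliar enclosure (NE) and 1 h back in the home cage, sorted on the PROX1 and FOS proteins as Prox1+/Fos+ or Prox1+/Fos-, or from the home cage (HC), sorted as NeuN+/Prox1+. After quality criteria the groups held 30 PTZ-treated cells, 38 saline-treated cells, 40 FOS+ nuclei, 41 FOS− nuclei and 23 HC nuclei.

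CREB binds the cyclic AMP response element (CRE) of its target genes as a dimer and becomes active when kinases downstream of calcium and cyclic AMP phosphorylate it, which recruits the coactivator CBP, the product of *Crebbp*. CRTC proteins are held in the cytoplasm while phosphorylated by salt-inducible kinases and enter the nucleus after dephosphorylation by calcineurin. In neurons this machinery is known for coupling synaptic activity to immediate early genes (IEGs), and most of it is controlled at the protein level, which RNA does not show.

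The labels name no animal, and each group is the cells or nuclei of 1 sort. Each group therefore counts as 1 sample, no test was run between groups, and the 95% intervals given with shares and with pooled levels cover counting error only. Totals of expected counts ran from 63775 to 1060516 in FOS− nuclei (median 214421), from 80096 to 1035170 in FOS+ nuclei (median 269061) and from 107647 to 278779 in HC nuclei. In whole cells they ran from 401331 to 2696043 after saline and from 67212 to 5129240 after PTZ. DGC markers were detected in every cell and nucleus used. The number of regulators detected in a cell or nucleus had a median of 5 in saline-treated cells, 6 in PTZ-treated cells, 5 in FOS− nuclei, 6 in FOS+ nuclei and 2 in HC nuclei. It was correlated with the number of genes detected (Pearson r of 0.55, 0.72, 0.76, 0.57 and 0.52 in the same order, n = 38, 30, 41, 40 and 23, as a description over cells that share library depth).

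Promoters of 8 of the 10 genes were found in the RefSeq table (GRCm38.p6), and *Crem* and *Crtc2* were not. Sequences of *Atf3*, *Atf4* and *Atf1* are shown because these genes stood at least 2-fold apart between FOS+ and FOS− nuclei and because they are the only ones of the 8 that hold a CRE core within the 250 bases before the start site. Each is written 5′ to 3′ on the strand of the gene, and the capitals mark matches to the CRE core (TGACG or its complement CGTCA) and, in *Atf3*, to an element like the one ATF4 binds with CEBP partners (TGATGNAA, found as its complement).
*Atf3*, chr1:191183334-191183583, minus strand: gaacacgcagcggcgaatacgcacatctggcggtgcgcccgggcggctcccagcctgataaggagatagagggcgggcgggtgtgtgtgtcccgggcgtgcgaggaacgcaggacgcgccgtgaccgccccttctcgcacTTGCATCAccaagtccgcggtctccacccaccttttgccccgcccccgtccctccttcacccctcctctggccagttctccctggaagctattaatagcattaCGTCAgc
*Atf4*, chr15:80254934-80255183, plus strand: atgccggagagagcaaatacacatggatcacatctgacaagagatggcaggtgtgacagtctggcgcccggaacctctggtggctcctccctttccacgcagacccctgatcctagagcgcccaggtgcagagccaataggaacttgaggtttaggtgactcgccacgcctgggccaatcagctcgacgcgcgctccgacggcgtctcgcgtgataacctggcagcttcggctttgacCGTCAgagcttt
*Atf1*, chr15:100227609-100227858, plus strand: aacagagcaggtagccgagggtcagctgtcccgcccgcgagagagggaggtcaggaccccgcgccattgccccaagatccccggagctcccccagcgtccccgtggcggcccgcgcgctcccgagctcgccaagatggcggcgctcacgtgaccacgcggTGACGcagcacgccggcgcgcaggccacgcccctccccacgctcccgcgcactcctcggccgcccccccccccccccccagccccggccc

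The CRE core lay 7 to 3 bases before the start site of *Atf3*, 12 to 8 bases before that of *Atf4* and 90 to 86 bases before that of *Atf1*. On both strands, 17.8% of 32851 RefSeq promoter windows of this length held a CRE core, which is also contained in every full CRE. The full CRE, TGACGTCA, was in 1.55% of windows and in 0 of the 8 regulators. The TGATGNAA element was in 3.45% of windows and, of the 8, in *Atf3* at 110 to 103 bases before the start. The AP-1 site TGANTCA was in 6.75% of windows and in 0 of the 8. Among 18 CREB target genes of a list given below that the table held, 15 had a CRE core (83.3%) and 5 a full CRE (*Btg2*, *Dusp1*, *Pcsk1*, *Scg2* and *Sst*). These targets are counted by gene, with a match in any of its windows, and by gene 19.8% of 27025 had a CRE core and 1.77% a full CRE. The target list came from textbook roles, so its share with a CRE is no independent evidence. These are matches of letters, and binding was not measured. The RefSeq start used for *Atf3* lies within the longer GENCODE gene, which spans positions 191170296 to 191218039 of chromosome 1.

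The comparison of FOS+ with FOS− nuclei asks which of these genes differed in RNA between nuclei of the same NE sort that did and did not carry FOS protein. Levels were pooled as CPM, the summed counts of a group scaled to a common total, and a gene was called when pooled CPM stood at least 2-fold apart, also after the nucleus with most of its counts in the higher group was left out. Of the 10 regulators, 3 were called higher in FOS+ nuclei (*Atf3*, *Crem* and *Atf4*), where 7.94% of 13183 genes passing the detection filter were called higher. One more, *Atf1*, was called lower (1 of 10), where 13.2% of the genes were. The remaining 6, among them *Creb1* itself, the 3 *Crtc* genes and *Crebbp*, were not called. All 10 passed the filter of a TPM above 1 in at least 10 nuclei of both groups together. The 3 called higher did not pass on FOS− nuclei alone, where *Atf3* was in 1, *Atf4* in 6 and *Crem* in 5 of 41. *Atf3* and *Atf4* passed through the FOS+ nuclei, where they were high. The count of 3 of 10 and the median of the 10 are therefore not independent of the filter. Nor are they independent of the choice of genes, made with earlier results known. The paper had already named *Atf3* as the most induced transcription factor of these FOS+ nuclei, with ATF3 protein also enriched. The median log2 ratio was 0.33 over the 10 regulators and −0.18 over all genes. TMM scaling would add 0.248 to every log2 ratio of this comparison, and no call among the 10 changed with it, while over all genes it gave 1397 higher and 1337 lower in place of 1047 and 1739.

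**Figure D1:**
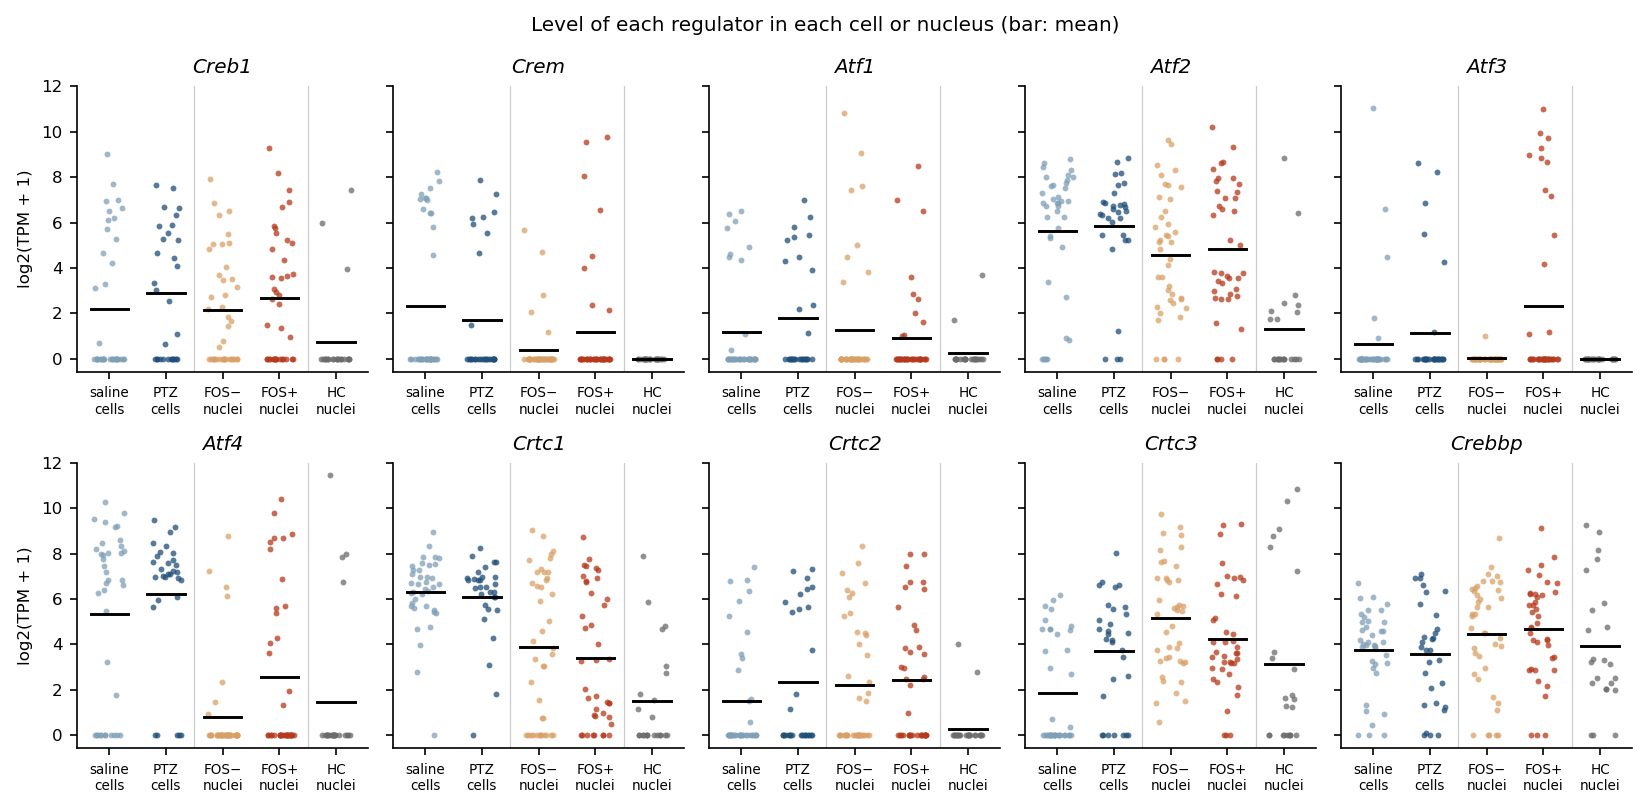
Level of each regulator as log2(TPM + 1) in every cell or nucleus of the 5 groups, with the group mean as a bar and grey lines between tables that were processed separately. *Atf3* is at or near 0 in all 41 FOS− and 23 HC nuclei, while 13 of 40 FOS+ nuclei have a TPM above 1, up to 2047.

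*Atf3* is an early-response factor that binds CRE sites and is known as a marker of stress and injury as well as of activity. In FOS− nuclei its TPM, a level scaled for transcript length and to a common total per nucleus, was 0 at the lowest, 0 at the median and 1.03 at the highest. In FOS+ nuclei it was 0, 0 and 2047. A TPM above 1 was thus found in 13 of 40 FOS+ nuclei (32.5%, interval 18.6 to 49.1%) and in 1 of 41 FOS− nuclei (2.44%, 0.0617 to 12.9%). The groups overlap at 0, since most FOS+ nuclei lacked *Atf3*, but those that had it spanned a wide range. The 13 values were 1.11, 1.27, 17.2, 43, 142, 174, 410, 465, 508, 631, 851, 997 and 2047 TPM. Summed over nuclei there were 2692 counts against 1, which gave a log2 ratio of 11.34 (8.86 to 16.65) in pooled CPM. Leaving out any 1 nucleus kept the ratio between 9.67 and 11.45, where the lowest value is a bound set against 3 counts, since without 1 FOS− nucleus that group had none. At a TPM above 5 the counts were 11 of 40 and 0 of 41 nuclei.

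NE nuclei were amplified in 4 conditions that differed in the template-switching oligo (TSO, 1 or 10 µM) and in the dilution of ERCC spike-in RNA (1:200 or 1:2000). The share of nuclei with *Atf3* was higher among FOS+ nuclei in 4 of 4 conditions, with 1 of 11 against 0 of 10, 6 of 11 against 0 of 11, 4 of 10 against 0 of 10, and 2 of 8 against 1 of 10. The first of these held only 3 counts. In the last, TSO 1 µM with ERCC 1:2000, 1 of the 2 FOS+ nuclei had 1.11 TPM, close to the FOS− nucleus at 1.03 TPM, and the other 631 TPM, which held nearly all counts. *Atf3* was called higher in 2 of the 4 conditions. Depth moved with detection, because the 13 FOS+ nuclei with *Atf3* had a median total of 507999 counts, against 221776 in the other 27. After thinning every nucleus to 60000 counts, *Atf3* was still found in 11 of 40 FOS+ and 0 of 41 FOS− nuclei. In these 13 nuclei DGC markers were found in 13 and summed to between 1065 and 5083 TPM, with *Plk5* at 0. GABAergic markers were found in 9 of the 13, summing to 0 to 1360 TPM with *Slc32a1* at 0, and in 18 of the other 27, up to 1197 TPM. Oligodendrocyte markers were found in all 13, at 1.14 to 899 TPM with *Mog* at 0, and in 22 of the 27, up to 441 TPM. Astrocyte markers were found in 10 of the 13, up to 584 TPM, and in 22 of the 27, up to 364 TPM. Microglial markers were found in 10 of the 13, up to 10.4 TPM with *Csf1r*, *C1qa* and *P2ry12* at 0, and in 20 of the 27, up to 3436 TPM. The part of other cell types in the result was not tested.

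*Atf4*, at positions 80255184 to 80257541 of chromosome 15, encodes the factor translated when the integrated stress response phosphorylates eIF2α. Its TPM in FOS− nuclei was 0 at the lowest and at the median and 440 at the highest. In FOS+ nuclei it was 0, 0 and 1354. It was detected in 16 of 40 FOS+ nuclei (40%, 24.9 to 56.7%) and in 6 of 41 FOS− nuclei (14.6%, 5.57 to 29.2%). The 2 intervals overlap in part, and so do the groups. Pooled CPM was 181 against 33.7, or 5.36-fold higher in FOS+ nuclei (4.86 to 5.93). Much of this rested on few nuclei, since 1 nucleus held 52.3% of the counts in FOS+ and another 63.2% in FOS−, and the ratio ranged from 2.75-fold to 13.9-fold as single nuclei were left out. It was higher in 3 of 4 amplification conditions and reversed in the other, TSO 10 µM with ERCC 1:200, where FOS+ nuclei had 2 counts and FOS− nuclei 47.

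*Crem*, on chromosome 18, encodes activating and repressing isoforms, among them the early repressor ICER, which these gene-level values do not separate. It was detected in 8 of 40 FOS+ nuclei (20%, 9.05 to 35.6%) and 5 of 41 FOS− nuclei (12.2%, 4.08 to 26.2%), so that the shares differed by less than their intervals. Its highest TPM was 881 in FOS+ and 49.9 in FOS− nuclei, and its median was 0 in both. The 8 FOS+ values were 3.45, 4.24, 15.2, 22.1, 93.8, 261, 754 and 881 TPM. Pooled CPM was 54.3 against 3.15, or 17.2-fold higher (12.7 to 23.9), with 785 counts against 44. One nucleus held 44.5% of the FOS+ counts and another 77.3% of the FOS− counts, and the ratio ranged from 9.76-fold to 70.7-fold as single nuclei were left out. Of the 785 FOS+ counts, 704 lay in TSO 1 µM with ERCC 1:2000, nearly all in nuclei with 348 and 349 counts. Leaving out 1 nucleus at a time never removed both of these. The direction held in 3 of 4 amplification conditions and was reversed in TSO 10 µM with ERCC 1:2000, with 2 counts against 38. Of the *Crem* transcript sequence, 6.58% in stretches of 31 bases is shared with *Gm6225*, an antisense gene that overlaps its exons, and the counting was not stated to use strand.

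*Atf1*, at positions 100227819 to 100261244 of chromosome 15, encodes a close relative of CREB that also binds the CRE. It was detected in about the same share of nuclei, 9 of 40 FOS+ (22.5%, 10.8 to 38.5%) and 8 of 41 FOS− (19.5%, 8.82 to 34.9%). Its highest TPM was 359 in FOS+ and 1824 in FOS− nuclei. Pooled CPM was 5.46 against 25.9, that is 4.73-fold lower in FOS+ nuclei, and the ratio was below 0 on the log2 scale in 4 of 4 conditions, from −6.17 to −0.02. One nucleus held 60.8% of the FOS+ counts and another 39.3% of the FOS− counts, and the difference ranged from 2.92-fold to 11.9-fold lower as single nuclei were left out. With mean TPM, where each nucleus weighs the same, the log2 ratio was −2.16, but it was under 2-fold without the top FOS− nucleus, so that *Atf1* was not called. Of its transcript stretches, 16.9% occur elsewhere, mostly in the pseudogene *Atf1-ps*, so reads could have been divided between them.

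*Creb1*, at positions 64532645 to 64604548 of chromosome 1, encodes the founding member of the family. It was detected in 23 of 40 FOS+ nuclei (57.5%, 40.9 to 73%) and 21 of 41 FOS− nuclei (51.2%, 35.1 to 67.1%). Its TPM was 0, 4.79 and 626 in FOS+ nuclei and 0, 1.70 and 243 in FOS− nuclei at the lowest, median and highest. Pooled CPM was 43.9 against 31.4, a ratio of 1.39-fold (1.23 to 1.58). The counting interval lies above 1, but the amplification conditions ranged from −3.09 to 4.84 on the log2 scale, 2 above 0 and 2 below.

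*Atf2*, at positions 73816509 to 73892639 of chromosome 2, encodes a CRE-binding factor activated by stress kinases. It was detected in 36 of 40 FOS+ nuclei (90.0%) and 37 of 41 FOS− nuclei (90.2%), with medians of 13 and 27.4 TPM. Pooled CPM was 80.8 and 84.5, or 0.956-fold (0.881 to 1.04), an interval that includes 1.

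Among the coactivators, *Crtc3*, at positions 80586627 to 80688877 of chromosome 7, was the most widely detected of its family in nuclei. It was found in 37 of 40 FOS+ nuclei (92.5%, 79.6 to 98.4%) with a median of 11.5 TPM, and in 40 of 41 FOS− nuclei (97.6%, 87.1 to 99.9%) with a median of 43.3 TPM. The pooled ratio was 0.648-fold (0.613 to 0.684), moving to 0.962-fold without the FOS− nucleus that held 37.8% of the counts. *Crtc1*, the main CRTC of neurons, at positions 70382355 to 70439579 of chromosome 8, was detected in 27 of 40 and 27 of 41 nuclei. Its pooled ratio was 1.14-fold (1.08 to 1.20), and its sign turned without the 1 FOS+ nucleus holding 36.8% of the counts, at 0.762-fold. *Crtc2*, at positions 90254163 to 90264125 of chromosome 3, was detected in 20 of 40 and 19 of 41 nuclei with a ratio of 1.53-fold (1.30 to 1.80), which ranged from 1.13-fold to 2.31-fold as single nuclei were left out and was 0.13 on the log2 scale by mean TPM. *Crebbp*, at positions 4081328 to 4213997 of chromosome 16, was detected in 37 of 40 FOS+ nuclei (92.5%) and 36 of 41 FOS− nuclei (87.8%), at medians of 28.1 and 36.8 TPM. Its ratio of 0.839-fold (0.801 to 0.878) stayed between 0.774 and 0.911 as single nuclei were left out, but on the log2 scale it moved from −0.25 to −0.005 with TMM scaling and turned to 0.15 by mean TPM.

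**Figure D2:**
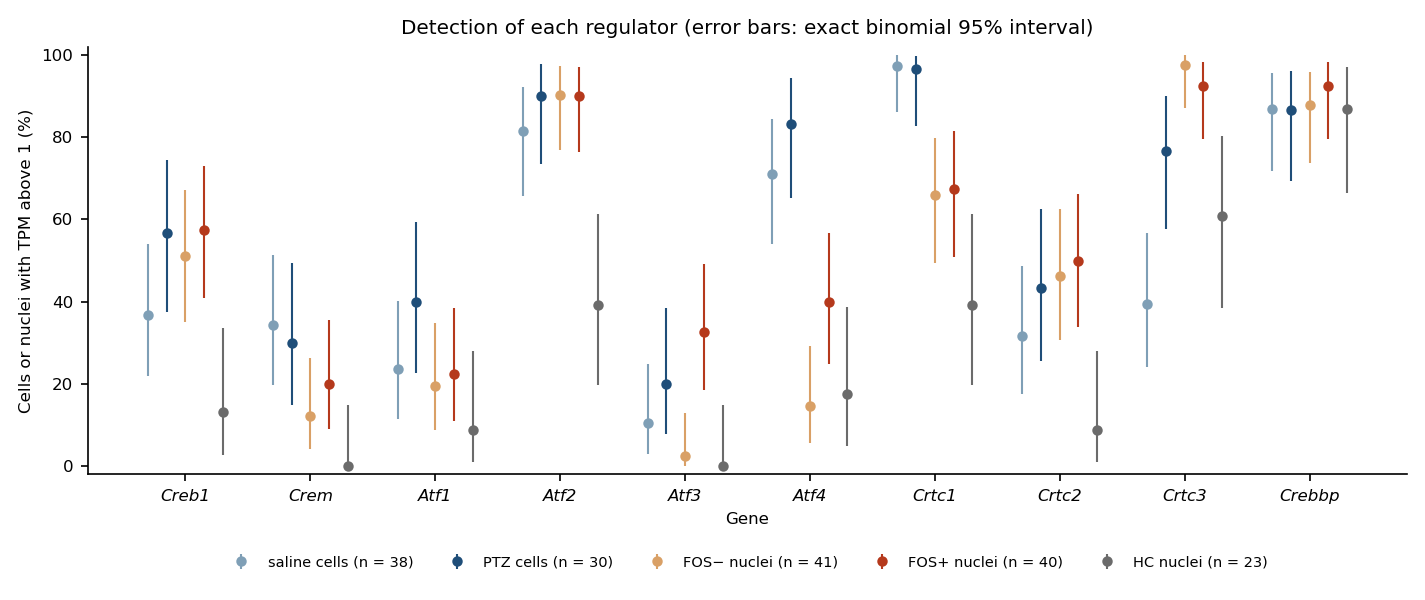
Percentage of cells or nuclei with a TPM above 1 for each regulator in the 5 groups, with exact binomial 95% intervals. The intervals of FOS+ and FOS− nuclei are separate for *Atf3*, those of PTZ-treated and saline-treated cells are separate for *Crtc3*, and *Crebbp* sits between 86.7 and 92.5% in every group.

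Within FOS+ nuclei, RNA of the IEG *Arc*, a synaptic scaffold gene, was detected in 31 of 40. That share is the background for the overlaps that follow. *Atf3* and *Arc* were detected together in 12 nuclei, which is 92.3% of those with *Atf3* and 38.7% of those with *Arc*. *Atf4* shared all 16 of its nuclei with *Arc* (51.6% of those with *Arc*), and *Crem* shared 7 of its 8. *Fos* RNA was detected in only 12 of the 40 nuclei sorted for FOS protein, and 5 of these also held *Atf3*. *Atf3* and *Atf4* were detected together in 7 nuclei, 53.8% of those with *Atf3* and 43.8% of those with *Atf4*, and *Atf3* and *Crem* in 4. For reference, the widely detected *Crebbp* shared 29 nuclei with *Arc*, 78.4% of its own. *Crtc1* and *Crtc2*, which were not called, shared 85.2% and 80% of theirs, so the overlap of *Crem* is not particular to it. Most FOS+ nuclei without *Arc* were amplified with TSO 10 µM and ERCC 1:200, where *Atf3*, *Atf4* and *Crem* were each in 1 of 11. The part of the amplification condition in these overlaps was not tested.

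**Figure D3:**
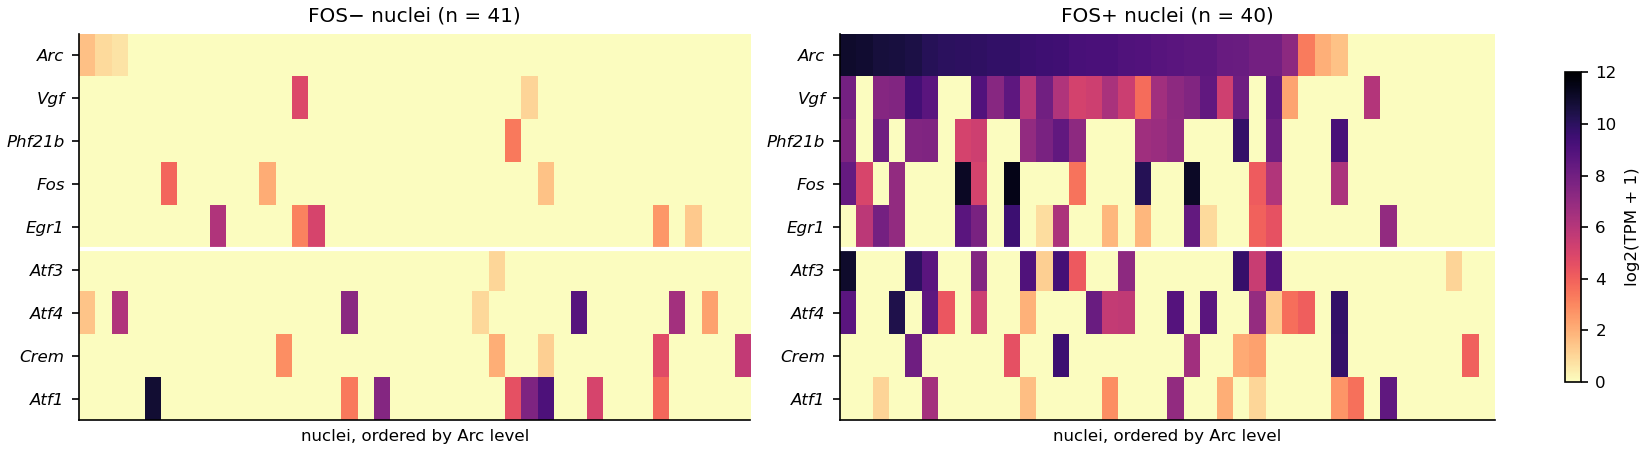
Level, as log2(TPM + 1), of 5 activity-related genes (top) and 4 regulators (bottom) in each FOS− nucleus (left, n = 41) and FOS+ nucleus (right, n = 40), with nuclei ordered by *Arc*. In FOS+ nuclei *Atf3* and *Atf4* lie mostly in columns that also hold *Arc*, with 12 of 13 and 16 of 16 nuclei. *Arc* itself was detected in 31 of the 40 FOS+ nuclei.

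The genes whose levels were most like those of *Atf3* over the 81 NE nuclei were *Phf21b*, a PHD finger gene (r = 0.66), *Vgf*, a neuropeptide precursor induced by neurotrophins (r = 0.58), and *Neat1*, a long non-coding RNA of paraspeckles (r = 0.57). Over the 40 FOS+ nuclei alone these values were 0.59, 0.47 and 0.48. For *Atf4* they were *Ankrd13a* (r = 0.64), *Dynll2* (0.54) and *Fem1b* (0.53). Over the 68 whole cells *Atf3* was most like *Dusp1*, a phosphatase of MAP kinases (0.54), *Gm28050* (0.54) and *Arc* (0.54), and *Atf4* most like the IEG *Nr4a1* (0.62), *Gltscr2* (0.61) and *Dctn3* (0.60). Also over whole cells, *Crem* was most like *Zfp408*, *Ppp6c* and *Srm* (each 0.53), *Atf1* like *Gm3055* (0.57) and *Ccdc101* (0.52), and *Atf2* like *Klhdc3* (0.53), *Atp6v1e1* (0.52) and *Mrpl27* (0.51). No gene reached 0.5 with *Creb1*, *Crebbp* or a *Crtc* gene. These are correlations of log2(TPM + 1) among 10299 candidate genes in nuclei and 10269 in whole cells, over cells that share depth and, for nuclei, both sort groups.

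The comparison of PTZ-treated with saline-treated whole cells asks the same of seizure. Each treatment is 1 pool of cells, and its libraries carry a name ending of their own (with the letters frz after saline only) that no source used here explains. What else differed between the pools therefore cannot be told apart from treatment. Of the 10 regulators, 1 was called higher in PTZ-treated cells, *Crtc3*, where 4.82% of 11455 genes were called higher, and 0 were called lower, where 4.98% were. *Crtc3* was detected in 23 of 30 PTZ-treated cells (76.7%, 57.7 to 90.1%) and in 15 of 38 saline-treated cells (39.5%, 24 to 56.6%). Its TPM was 0, 19.6 and 259 after PTZ and 0, 0 and 71.3 after saline at the lowest, median and highest. The ranges overlap, but most PTZ-treated cells lay above the saline median. Pooled CPM was 59.9 against 20.8, or 2.87-fold higher (2.66 to 3.11), and the ratio stayed between 2.38-fold and 3.5-fold as single cells were left out. The other coactivators were not called. *Crtc2* stood at 1.92-fold (1.75 to 2.11) with 13 of 30 against 12 of 38 cells, and *Crtc1*, detected in 29 of 30 and 37 of 38 cells, at 1.11-fold (1.08 to 1.15).

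*Atf3*, *Atf4* and *Crem*, which were higher in FOS+ nuclei, were not called in whole cells. *Atf3* was detected in 6 of 30 PTZ-treated cells (20%, 7.71 to 38.6%) and 4 of 38 saline-treated cells (10.5%, 2.94 to 24.8%), with highest values of 391 and 2120 TPM. A single saline-treated cell held 90.8% of its group's counts, so that the pooled ratio of 1.51-fold lay anywhere from 0.941-fold to 16.1-fold as single cells were left out. *Atf4* was detected in 25 of 30 (83.3%, 65.3 to 94.4%) and 27 of 38 cells (71.1%, 54.1 to 84.6%), with medians of 140 and 113 TPM and a ratio of 1.23-fold (1.19 to 1.27). *Crem* was detected in 9 of 30 and 13 of 38 cells, and its ratio of 0.934-fold (0.861 to 1.01) includes 1 in its interval. *Creb1* stood at 1.46-fold with 17 of 30 against 14 of 38 cells, *Atf1* at 1.62-fold with 12 against 9, *Atf2* at 1.25-fold with 27 against 31, and *Crebbp* at 0.794-fold with 26 against 33. The median log2 ratio was 0.44 over the 10 regulators and −0.03 over all genes, or −0.19 and −0.08 by mean TPM. By mean TPM 6 of the 10 turned in sign: *Creb1* to −0.20, *Atf2* to −0.17, *Atf3* to −1.03, *Atf4* to −0.29, *Crtc1* to −0.21 and *Crebbp* to 0.45 on the log2 scale, while *Crem* stood at −0.86. Over all genes 552 were called higher and 570 lower, or 434 and 797 by mean TPM. In these cells *Fos* RNA was already detected in 30 of 38 saline-treated and 26 of 30 PTZ-treated cells. These shares include cells of both groups with only 1 *Fos* count, so they do not rank the treatments. The pooled ratio of *Fos* was 1.12-fold (1.11 to 1.13), which was not called.

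HC nuclei were captured and amplified on another platform and are set beside the other groups without a comparison. *Atf3* and *Crem* had 0 counts in 23 nuclei, which at 3 nuclei of 23 allows a share of up to 13% (14.8% as the upper end of the exact interval). *Crebbp* was detected in 20 of 23 (87.0%, 66.4 to 97.2%) at a median of 8.42 TPM, and *Crtc3* in 14 of 23 (60.9%, 38.5 to 80.3%) at a median of 2.04 TPM and a highest value of 1834 TPM. *Atf2* and *Crtc1* were each detected in 9 of 23 nuclei, *Atf4* in 4, *Creb1* in 3, and *Atf1* and *Crtc2* in 2 each. Of the *Atf4* counts, 80.8% lay in 1 nucleus.

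Ordered by mean log2(TPM + 1), which is a level per transcript length, the regulators ranked differently in the groups. In FOS− nuclei *Crtc3* (5.19 ± 2.38, SD over nuclei), *Atf2* (4.58 ± 2.68), *Crebbp* (4.47 ± 2.40) and *Crtc1* (3.91 ± 3.25) came first, and *Atf3* last (0.02 ± 0.16). In FOS+ nuclei the first 4 were *Atf2* (4.83 ± 2.86), *Crebbp* (4.69 ± 2.16), *Crtc3* (4.24 ± 2.39) and *Crtc1* (3.38 ± 2.95), and *Atf3* stood at 2.33 ± 3.85. In HC nuclei *Crebbp* (3.96 ± 2.81) and *Crtc3* (3.14 ± 3.84) came first. In saline-treated cells the order began with *Crtc1* (6.31 ± 1.60), *Atf2* (5.65 ± 2.89) and *Atf4* (5.36 ± 3.81), and in PTZ-treated cells with *Atf4* (6.24 ± 2.97), *Crtc1* (6.09 ± 1.76) and *Atf2* (5.85 ± 2.42). In 4 of the 5 groups all 9 pairs of neighbours in the order differed by less than the larger of their SDs, and in HC nuclei 8 did while *Atf3* and *Crem* were tied at 0.

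The genes that act on or through these regulators were counted in lists by role. Of 24 CREB target genes, 21 passed the filter in NE nuclei, 20 of these were called higher in FOS+ nuclei and 0 lower, and their median log2 ratio was 5.82. The exception was *Ppargc1a*, a regulator of mitochondrial genes, at 2.61-fold and named here after its values were seen. The 8 with the largest log2 ratios were *Arc* (12.09), the prostaglandin synthase gene *Ptgs2* (10.93), *Fos* (10.34), *Fosb* (10.09), *Nr4a1* (9.74), *Vgf* (9.56), *Nr4a2* (8.86) and *Nr4a3* (7.76). FOS− nuclei held only 2 to 4 counts of the first 6, so counting error is wide, with an interval of 8.79 to 12.62 for *Fos*. *Pcsk1* had 580 counts against 0, so its 7.54 is a bound set against 3 counts and its place in this order is not known. The nuclei were sorted on FOS protein, and several of these genes are known activity markers that the study had already reported as higher in these FOS+ nuclei. The count is therefore not independent evidence of direction. Of the 21, 14 passed the filter only through the FOS+ nuclei, where they were high, with fewer than 10 FOS− nuclei above 1 TPM. For these a difference was favoured in advance, so the count and the median support nothing. In whole cells 20 of the targets passed the filter and 2 were called higher after PTZ, *Gadd45b* at 5.45-fold and *Dusp1* at 3.47-fold, with 0 lower and a median of −0.13, where 4.82% and 4.98% of all genes were called.

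Of 22 genes for kinases that phosphorylate CREB or for their regulators, 17 passed in NE nuclei, with 1 higher, 4 lower and a median of 0.03, where 7.94% of all genes were called higher and 13.2% lower, the background also for the NE counts of the other lists. The one higher was *Rps6ka3*, which encodes the CREB kinase RSK2, at 7.65-fold (6.64 to 8.84) with 25 of 40 FOS+ against 8 of 41 FOS− nuclei. Its TPM was 0, 21 and 785 in FOS+ and 0, 0 and 574 in FOS− nuclei at the lowest, median and highest. The 4 lower were *Camkk2*, *Prkar1b*, *Mapk3* and *Prkacb*. *Camkk2*, an upstream kinase of CaM kinases, stood 11.2-fold lower, and *Prkar1b*, a regulatory subunit of protein kinase A, 5.80-fold. *Mapk3*, which encodes ERK1, stood 5.34-fold lower, and *Prkacb*, a catalytic subunit of protein kinase A, 4.63-fold. These are folds of pooled counts, without a test between groups. For *Mapk3* the paper, which tested over nuclei, reported no significant difference in the NE nuclei. In whole cells 19 passed and 2 were called higher after PTZ, *Rps6ka5*, which encodes MSK1 (9.57-fold, in 6 of 30 and 4 of 38 cells), and *Camk1* (2.97-fold), with 0 lower.

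Of 18 genes that control CRTC proteins or act beside CBP, 17 were in the tables and 16 passed in NE nuclei. The salt-inducible kinase genes *Sik1* (14.3-fold, 25 of 40 against 13 of 41 nuclei) and *Sik3* (2.85-fold) and the 14-3-3 gene *Ywhag* (2.72-fold) were called higher in FOS+ nuclei. *Sik1* is also one of the CREB targets. The acetyltransferase gene *Kat2a* (24.8-fold, 2 of 40 against 10 of 41 nuclei) and *Stk11*, which encodes the SIK-activating kinase LKB1 (6.36-fold), were called lower, and the median was 0.02. The calcineurin subunit genes *Ppp3ca*, *Ppp3cb* and *Ppp3r1* were not called. In whole cells 16 passed and 0 were called in either direction.

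Of 14 relatives of the CREB and ATF factors, 7 passed in NE nuclei. *Ddit3*, which encodes the stress factor CHOP, was called higher in FOS+ nuclei at 12.3-fold, with 75.1% of its counts in 1 nucleus, and *Crebl2* (4.04-fold) and *Atf7* (3.93-fold) were called lower. *Crebl2* was detected in 28 of 40 FOS+ and 27 of 41 FOS− nuclei and *Atf7* in 36 and 33, so their shares were not lower. In FOS− nuclei 1 nucleus held 43.6% of the *Atf7* counts. Of 7 genes for the kinases and phosphatases of eIF2α and its subunit, which control ATF4 translation, 6 passed, 0 were called higher and *Eif2ak1*, the heme-regulated kinase, was called lower at 4.42-fold. *Eif2ak1* was detected in similar shares, 19 of 40 FOS+ and 21 of 41 FOS− nuclei. Of 20 ATF4 target genes, 10 passed, with 3 higher and 0 lower. They were *Ddit3* again and the amino acid transporter genes *Slc7a5* (4.59-fold, 8 of 40 against 4 of 41 nuclei) and *Slc3a2* (4.20-fold). Some genes of these lists passed although fewer than 10 nuclei of the group where they were lower had a TPM above 1. These were 6 of 17 kinase genes, 3 of 16 CRTC control genes, 2 of 7 relatives, 1 of 6 eIF2α genes and 6 of 10 ATF4 targets. The counts called in these lists are thus no independent evidence of direction. In whole cells 9 relatives and 6 eIF2α genes passed and 0 of either were called. Of 16 ATF4 targets that passed there, *Cebpb* (4.14-fold) and *Slc7a5* (interval of 3.55 to 4.51-fold) were called higher and *Sesn2* (5.18-fold) and *Aars* (2.64-fold) lower after PTZ. For whole cells the same limit of the filter held for 4 of 20 CREB targets, 6 of 19 kinase genes, 3 of 9 relatives and 6 of 16 ATF4 targets. Over all genes 4.82% were called higher after PTZ and 4.98% lower.

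**Figure D4:**
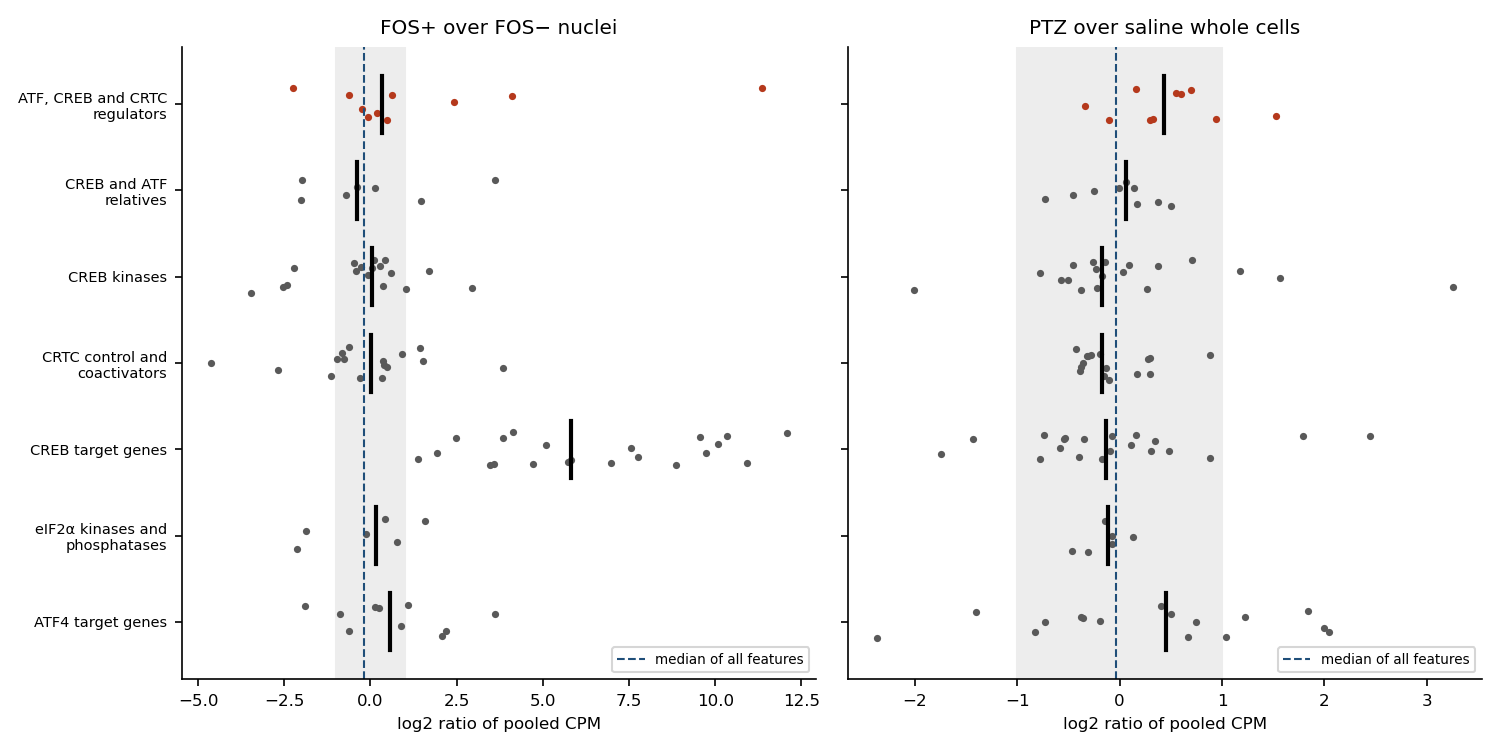
Log2 ratio of pooled CPM for the 10 regulators (red) and for the genes of 6 lists that passed the filter (grey), with list medians as black bars, FOS+ over FOS− nuclei on the left and PTZ-treated over saline-treated cells on the right. CREB target genes have a median of 5.82 in nuclei and −0.13 in whole cells, while the light band marks less than 2-fold and the dashed line the median of all genes.

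Markers of other cell types were checked beside these counts. Of 32 marker genes, 3 were called between FOS+ and FOS− nuclei: the DGC marker *Plk5* lower (2 of 40 against 10 of 41 nuclei), the immature neuron marker *Dcx* lower (5 of 40 against 9 of 41) and the CA pyramidal marker *Fibcd1* higher (7 of 40 against 3 of 41). *Fibcd1* was also called higher after PTZ (12 of 30 against 5 of 38 cells). Over all genes 7.94% were called higher in FOS+ nuclei and 13.2% lower. Markers failing the filter could not be called. Passing were 0 of 2 oligodendrocyte precursor, 1 of 3 astrocyte, 1 of 4 microglial and 1 of 3 endothelial markers. Of those failing, *Gfap* (830 against 6 counts), *P2ry12* (495, 40), *Csf1r* (445, 29), *Pdgfra* (120, 3) and *Aqp4* (88, 1) stood higher in FOS+, mostly in 1 nucleus each. *Slc32a1* (0, 66), *Mog* (0, 3) and *Cspg4* (0, 1) stood lower. At least 1 of the 3 GABAergic markers was detected in 27 of 40 FOS+ and 17 of 41 FOS− nuclei, and at least 1 of the 3 astrocyte markers in 32 and 25, with summed medians of 9.13 and 0.21 TPM and of 9.56 and 8.05 TPM. Summed microglial markers had medians of 4.25 TPM in FOS+ and 4.88 TPM in FOS− nuclei, and the 1 FOS+ nucleus with 3436 TPM of them had *Atf3* and *Crem* at 0 and *Atf4* at 15.7 TPM. In whole cells at least 1 astrocyte marker was detected in 6 of 30 PTZ-treated and 8 of 38 saline-treated cells. Their sums reached 3421 and 87.4 TPM. The 1 astrocyte marker that passed there stood at 4.63 on the log2 scale and was not called. GABAergic markers were found in 21 of 30 and 33 of 38 cells, and oligodendrocyte markers in 18 and 26. The part of these differences in the results was not tested.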

How the data were processed

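RNA of single DGCs and DGC nuclei was sequenced after Smart-seq2 (whole cells, NE nuclei) or on the Fluidigm C1 (HC nuclei). The authors trimmed reads and assigned them with RSEM and Bowtie 1.0.0 (submitters' processing notes) to mm10 with Ensembl genes. They deposited unnormalized expected counts and TPM values, computed by RSEM within each cell, as tables for whole cells, NE nuclei and HC nuclei.

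Groups follow the labels. Cells were used if counts totalled over 50000 and genes with a TPM above 1 exceeded the mean minus 2 SD of the table, except that all 23 HC nuclei were used. FOS− nuclei passed in 41 of 48 cases, FOS+ nuclei in 40 of 48, whole cells after saline in 38 of 47 and after PTZ in 30 of 35. Expected counts were rounded, summed per group and scaled to CPM over the summed totals. Genes with a TPM above 1 in at least 10 cells of a comparison were kept. A group at 0 was set to 3 counts. Shares have Clopper-Pearson and pooled levels exact Poisson intervals at 95%. Because each group is 1 sample, edgeR 4.0.16 and DESeq2 1.42.0 served only for scaling factors of the alternatives, beside Python 3.11.15, pandas 2.3.3 and scipy 1.17.1. On simulated counts with known changes, the pooled ratios behind the calls were checked, and the share of wrong calls is not reported.

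The regulators and lists were chosen with earlier results of these data known. From each list the text names up to 4 called genes per direction with the largest fold (8 for CREB targets), and as most alike up to 3 genes with r of at least 0.5 for regulators in at least 20% of cells, and for *Atf3* always. Lists of relatives, kinases, CRTC control, CREB targets, eIF2α genes and ATF4 targets come from textbook roles. Positions are from the GENCODE annotation of GRCm38. Alternatives changed scaling, weighting, filters, thresholds, depth and the cells included.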

Additional observations from a re-analysis of the deposited data

How the results depend on the processing

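*Atf3*, *Crem* and *Atf4* kept their higher calls in FOS+ nuclei, and *Crtc3* its higher call after PTZ, with TMM or DESeq2 factors, with mean TPM and with all cells of a table. *Atf1* kept its lower call except with mean TPM (0 regulators lower), where it was under 2-fold without its top nucleus. Taking away the filter could not change a call of a regulator, since all of them had passed it. A fold of 4 left 2 regulators higher in FOS+ nuclei (*Crem* and *Atf3*), 0 lower and 0 higher after PTZ. Over all genes that fold gave 410 higher and 607 lower in FOS+ nuclei, against 1047 and 1739, and 111 higher and 99 lower after PTZ, against 552 and 570, whereas no filter gave 1805, 3022, 1403 and 1396. TMM factors changed the counts in FOS+ nuclei to 1397 higher and 1337 lower, and DESeq2 factors to 1292 and 1422. Mean TPM gave 434 higher and 797 lower after PTZ. Within single amplification conditions of 8 to 11 nuclei a group, the regulators called differed. With TSO 10 µM and ERCC 1:200, 1 was higher (*Creb1*) and 0 lower, and *Atf4* reversed to −5.21 on the log2 scale. With TSO 10 µM and ERCC 1:2000, 1 was higher (*Atf3*) and 1 lower (*Crem*, reversed to −4.39), with 2568 genes lower in all. With TSO 1 µM and ERCC 1:200, 4 were higher (*Crem*, *Atf3*, *Atf4* and *Crtc2*), *Creb1* was lower (−3.09) and 1793 genes were higher in all. With TSO 1 µM and ERCC 1:2000, *Crem* and *Atf4* were higher, *Atf1* was lower and *Atf3* was not called. The cause was not tested. Of 150 alternative values of detection, 11 moved beyond the counting interval, as did 101 of 169 pooled ratios, besides 2 that reversed. Only ratios of called regulators could count as reversed, so sign changes of the others are not among these 2. By mean TPM alone, 3 of the 10 ratios turned in sign in nuclei and 6 in whole cells. An alternative added after the data were seen, without the FOS+ nucleus with the fewest genes, changed no call of a regulator. No paired analysis was possible because the labels give no replicate number shared between groups. The amplification conditions shared by FOS+ and FOS− nuclei are compared above. Depth limits what can be said of genes at 0, and 3 counts pooled over a group correspond to 0.215 CPM in FOS− and 0.769 CPM in HC nuclei.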
